A study of Mus musculus with 40 samples.

Results

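Interleukin transcripts were examined in hearts from CM-Il11-Tg mice, whose cardiomyocytes were made to express *Il11*. The genes described are 10 cytokine and receptor genes: the IL-1 family ligands *Il33*, *Il1b* and *Il18*, the IL-1 family receptor chains *Il1r1*, *Il1rl1* and *Il1rap*, and the cytokines *Il6*, *Il15*, *Il34* and *Il7*. They were taken by gene name from a table of expression values for each sex, where they are 10 of 17646 listed genes in males and 10 of 17223 in females. The group is a set of names and not a pathway: *Il34*, *Il15* and *Il7* belong to other cytokine families.

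Polyadenylated RNA of left ventricular tissue was sequenced, with 1 library per sample, and these samples are called hearts below. Male and female hearts each formed 5 groups. CM-Il11-Tg mice carried *Rosa26-Il11* and the tamoxifen-inducible Cre α-MHC-MerCreMer (MCM), whose promoter restricts Cre to cardiomyocytes, and were given tamoxifen at 8 weeks of age at 20 mg/kg for 5 days. Their hearts were sampled 1, 3 or 6 weeks after induction. Control mice carried MCM without *Rosa26-Il11* and also received tamoxifen, although the time from tamoxifen to sampling is not given for them. Uninduced mice carried both transgenes and received no tamoxifen, and their age at sampling is not given. Control and 6-week males had 3 libraries and each other group had 4, because 2 of 40 libraries carry conflicting labels and entered no comparison. Libraries held 16663513 to 65333832 reads on listed genes in males and 19147947 to 30929192 in females. *Il11* was at 0 to 0.147 CPM (reads scaled by the library sizes the authors used) in male controls and 0 to 0.166 CPM in female controls, at 15.5 to 49.1 CPM in uninduced hearts of both sexes and at 328 to 819 CPM in induced hearts. The uninduced hearts therefore carried *Il11* RNA without tamoxifen. All 10 cardiomyocyte markers were listed, and their sum was 60083 to 72458 CPM in male controls and 41099 to 51441 CPM at 6 weeks, and 45461 to 65327 and 38789 to 49392 CPM in females.

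IL-1 family cytokines signal through paired receptor chains. IL-33, a nuclear protein of stromal and barrier cells that acts as an alarm signal when released, binds the receptor ST2 (*Il1rl1*), and IL-1β binds the receptor encoded by *Il1r1*. Both receptors need the shared accessory chain encoded by *Il1rap*, after which the adaptor MyD88 leads to NF-κB. IL-6 acts through a different receptor that shares the gp130 chain with the IL-11 receptor. IL-34 is a ligand of the macrophage receptor CSF1R, while IL-15 and IL-7 maintain lymphocytes.

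The sequence just upstream of the start site is shown for *Il33*, *Il1r1* and *Il6*, the members that were higher than control at each week in both sexes. Each run is the 250 bases before the start of the canonical transcript in GRCm39, 5′ to 3′ on the strand of the gene, and capitals mark matches to an AP-1 or NF-κB motif. The windows lie at chr19:29902233-29902482, chr1:40305496-40305745 and chr5:30217862-30218111, in that order, and all are on the plus strand.
Il33: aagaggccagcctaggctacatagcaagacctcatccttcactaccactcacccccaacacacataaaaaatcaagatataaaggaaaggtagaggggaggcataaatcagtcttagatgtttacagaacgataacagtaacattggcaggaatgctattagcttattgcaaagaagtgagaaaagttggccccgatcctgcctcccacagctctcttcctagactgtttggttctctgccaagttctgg
Il1r1: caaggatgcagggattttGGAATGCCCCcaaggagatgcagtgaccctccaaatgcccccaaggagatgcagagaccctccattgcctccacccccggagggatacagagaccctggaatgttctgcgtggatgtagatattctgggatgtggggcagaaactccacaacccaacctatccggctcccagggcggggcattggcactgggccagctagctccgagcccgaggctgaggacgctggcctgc
Il6: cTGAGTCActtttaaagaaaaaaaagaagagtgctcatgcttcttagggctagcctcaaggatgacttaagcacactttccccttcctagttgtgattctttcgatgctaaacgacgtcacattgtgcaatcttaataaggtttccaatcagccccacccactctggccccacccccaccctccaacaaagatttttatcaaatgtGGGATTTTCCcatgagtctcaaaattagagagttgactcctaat
The *Il6* window holds the AP-1 letters TGAGTCA at -249 to -243 and the NF-κB match GGGATTTTCC at -44 to -35, counted from the start site. The *Il1r1* window holds an NF-κB match on the reverse strand, read on the plus strand as GGAATGCCCC, at -232 to -223. The *Il33* window holds no match to either, and none of the 3 windows holds the STAT letters TTCNNNGAA. The search covered both strands, with TGANTCA for AP-1 and the NF-κB consensus by name, and the motifs do not overlap here. Among 21770 mouse promoter windows of the same length, 7.7% held the STAT letters, 6.17% the AP-1 letters and 7.62% the NF-κB match. A match describes letters and does not show that a factor binds.

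On the log2(CPM + 0.5) scale *Il33* showed the widest change from control of the 10 genes. It lies at chr19:29902483-29938933 on the plus strand of GRCm39. Male controls were at 0.412, 1.48 and 2.87 CPM, and male induced hearts at 125, 156, 136 and 58.2 CPM at 1 week, 123, 157, 136 and 158 CPM at 3 weeks and 138, 161 and 157 CPM at 6 weeks. Female controls were at 3.49, 3.24, 1.90 and 2.49 CPM, against 124, 210, 157 and 140 CPM at 1 week, 212, 193, 302 and 245 CPM at 3 weeks and 207, 293, 349 and 261 CPM at 6 weeks. No induced library overlapped a control library in either sex, and the lowest induced value, 58.2 CPM, was that of a 1-week male that also had the lowest *Il1r1* of its group. Mean CPM was 75.0, 90.7 and 95.8 times that of control at 1, 3 and 6 weeks in males, and 56.7, 85.5 and 99.7 times in females. Without control replicate 4, the highest, the male ratios were 126, 152 and 161. On the log2(CPM + 0.5) scale used for testing, the 6-week difference was 6.38 ± 0.44 (SE, n = 3 and 3) in males, with limma adjusted p = 2.41e-09, and 6.41 ± 0.36 (n = 4 and 4) in females, with limma adjusted p = 2.47e-11. Whether more cells held the transcript or each cell held more of it cannot be told apart in bulk tissue.

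**Figure D1:**
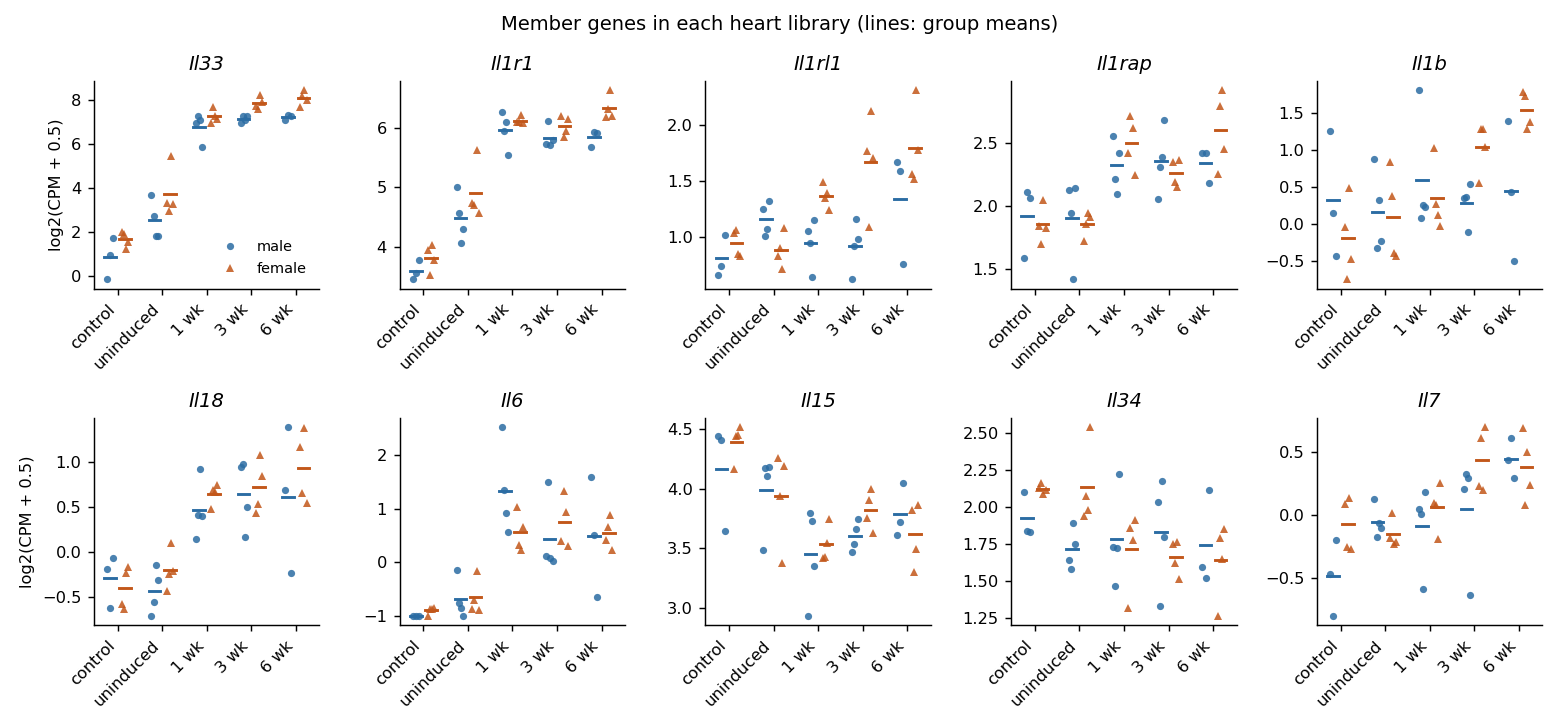
Level of each of the 10 genes in each library as log2(CPM + 0.5), by group on the horizontal axis, with males as circles and females as triangles; short lines are group means and the vertical scale differs between panels. *Il33* and *Il1r1* separate induced from control libraries in both sexes, while *Il15* is lower in most induced libraries.

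The receptor chain that binds IL-33 changed far less than its ligand. *Il1rl1*, at chr1:40468730-40504575 on the plus strand, was at 1.09 to 1.53 CPM in male controls and at 1.04 to 1.74 CPM over the 1- and 3-week males. At 6 weeks the 3 males read 2.7, 2.51 and 1.19 CPM, and the difference from control of 0.53 ± 0.22 missed the threshold (limma adjusted p = 0.084). It passed without the third of these libraries, at 0.82 with limma adjusted p = 0.00489. Females went from 1.55, 1.6, 1.3 and 1.27 CPM in controls to 2.90, 1.63, 3.87 and 2.76 CPM at 3 weeks and 2.46, 2.36, 4.46 and 2.93 CPM at 6 weeks. The female ranges did not overlap those of control at either week, and mean CPM was 1.95 and 2.13 times control (limma adjusted p = 0.00552 and 0.00122). The gene-level values do not separate the membrane and soluble forms of ST2. Mast cells are a known site of ST2, and 7 of 10 mast cell markers were listed in females, with sums of 8.27 to 16.5 CPM in controls and 20.8 to 34.9 CPM at 6 weeks. In males 6 of 10 were listed, with 9.29 to 16.7 CPM in controls and 6.99 to 16.6 CPM at 6 weeks. The part of mast cells in the *Il1rl1* values was not tested. *Il1rap*, the accessory chain at chr16:26400350-26548880, had 6-week means 1.38 times control in males (limma adjusted p = 0.141) and 1.81 times in females (limma adjusted p = 0.000264). Its female 3-week call, at 0.41 ± 0.14, was lost when any of 5 libraries was left out (adjusted p of 0.0597 to 0.0922 without them).

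*Il1r1*, the signalling receptor for IL-1α and IL-1β at chr1:40264174-40356417, rose in both sexes at each week. Male controls were at 10.6, 11.4 and 13.4 CPM, and male induced hearts at 76.4, 60.9, 67.8 and 46.3 CPM at 1 week, 52.1, 68.5, 52.0 and 54.9 CPM at 3 weeks and 50.8, 60.6 and 59.6 CPM at 6 weeks. Female controls were at 14.9, 11.1, 15.9 and 13.4 CPM, and the female induced hearts at 67.7, 67.3, 73.4 and 66.8 CPM, 73.0, 57.0, 61.2 and 69.8 CPM, and 71.5, 79.0, 97.7 and 72.6 CPM at the same weeks. The induced and control ranges were apart in each case, with the lowest induced heart at 46.3 CPM and the highest control at 15.9 CPM. Mean CPM at 6 weeks was 4.84 times control in males, a difference of 2.23 ± 0.20 in log2 units (limma adjusted p = 7.61e-08). In females it was 5.81 times control, a difference of 2.50 ± 0.17 (limma adjusted p = 4.02e-10). The change was already of this size at 1 week, at 5.33 times control in males and 4.98 times in females.

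The ligand gene of this receptor among the 10 was scarce. *Il1b*, encoding IL-1β, lies at chr2:129206490-129213059 on the minus strand. In females it was at 0.474, 0.0968, 0.901 and 0.222 CPM in controls, at 0.967, 1.94, 1.93 and 1.56 CPM at 3 weeks and at 2.93, 2.79, 1.93 and 2.1 CPM at 6 weeks. The later female groups lay above all 4 controls, and mean CPM was 3.78 and 5.76 times control (limma adjusted p = 0.00339 and 0.000105), or 6.06 and 9.23 times without control replicate 3. The female difference at 1 week, 0.54 ± 0.30, did not pass the test (limma adjusted p = 0.194). Male *Il1b* spread as widely within groups as between them: controls read 1.87, 0.606 and 0.244 CPM and the 6-week hearts 2.11, 0.847 and 0.210 CPM. Its male differences were 0.27, -0.04 and 0.12 in log2 units at 1, 3 and 6 weeks, none of which passed (limma adjusted p = 0.683, 0.97 and 0.882).

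*Il18*, an IL-1 family cytokine released after cleavage by caspase-1, lies at chr9:50466081-50493633. Females went from 0.172, 0.145, 0.350 and 0.388 CPM in controls to 0.889, 1.12, 1.09 and 1.17 CPM at 1 week and 1.74, 1.07, 2.11 and 0.956 CPM at 6 weeks. All female induced libraries lay above all female controls, and mean CPM at 6 weeks was 5.57 times control (limma adjusted p = 1.4e-05). Males went from 0.375, 0.151 and 0.456 CPM to 1.12, 2.12 and 0.350 CPM at 6 weeks, so 1 of 3 hearts lay within the control range. That heart, 6-week replicate 4, also had the lowest *Il6*, *Il1b* and *Il1rl1* of its group. Its erythroid marker sum was 15992 CPM, beside 2386 and 2644 CPM in the other 6-week males. The part of this library's make-up in those values was not tested. No control of either sex reached the 0.5 CPM filter, so the gene entered the test through its induced libraries. The male differences of 0.94 at 3 weeks and 0.91 at 6 weeks passed narrowly (limma adjusted p = 0.0297 and 0.0414), and that of 0.76 at 1 week did not (limma adjusted p = 0.0565). The 3-week call was lost without control replicate 1 or 3, or 3-week replicate 1 or 2 (adjusted p of 0.0597 to 0.153). At 6 weeks the male call was lost in 5 of the fits that left out 1 library, with an adjusted p up to 0.22 without 6-week replicate 3: these were the 3 controls and 6-week replicates 1 and 3.

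*Il6*, at chr5:30218112-30224979, was close to absent from control hearts. Uninduced hearts were at 0 to 0.406 CPM in males, a range that took in the lowest 6-week male, and at 0.0405 to 0.397 CPM in females. The 3 male controls held 0 reads and the 4 female controls held 0, 1, 1 and 1 read, so the gene entered the test through its induced libraries. Male induced hearts were at 5.22, 2.03, 1.40 and 0.974 CPM at 1 week, 0.578, 2.32, 0.559 and 0.515 CPM at 3 weeks and 2.50, 0.918 and 0.140 CPM at 6 weeks. Female induced hearts were at 1.53, 0.744, 0.669 and 1.08 CPM, then 0.818, 2.01, 1.41 and 0.735 CPM, and then 0.832, 1.07, 1.33 and 0.678 CPM. All were above the controls of their sex, and the male values spread the more widely. Against 3 reads in the shallowest control library, worth 0.114 CPM, the male means were at least 21.2-fold, 8.74-fold and 10.4-fold higher at 1, 3 and 6 weeks. Taking the lowest library of each group in place of the mean, these limits were 8.57, 4.54 and 1.23. Scaled by the library sizes behind the deposited CPM, the summed female reads were 27.9 times the control reads at 1 week (95% counting interval 9.27 to 137), 32.9 times at 3 weeks (11 to 162) and 26.5 times at 6 weeks (8.81 to 130). These intervals cover counting error only. The limma adjusted p at 1, 3 and 6 weeks was 0.000742, 0.0329 and 0.032 in males and 6.48e-05, 1.27e-05 and 4.38e-05 in females. The male calls at 3 and 6 weeks were lost without any 1 of the controls (adjusted p of 0.0693 to 0.0924). They were also lost without 3-week replicate 2 (0.116), 6-week replicate 1 (0.176) or 6-week replicate 3 (0.0613).

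The remaining cytokines changed by smaller factors. *Il15*, a cytokine that maintains natural killer and memory T cells, lies at chr8:83054226-83129874 on the minus strand and was lower after induction. Female controls were at 17.4, 21.2, 21.4 and 22.4 CPM, against 10.2, 10.3, 11.2 and 12.9 CPM at 1 week, 13.0, 14.5, 15.5 and 11.8 CPM at 3 weeks and 13.7, 9.37, 10.7 and 14.0 CPM at 6 weeks. The female ranges did not overlap those of control, and mean CPM was 0.54, 0.665 and 0.58 times control (limma adjusted p = 0.000471, 0.0115 and 0.000841). In males, controls of 21.3, 20.8 and 12 CPM stood against 7.13, 13.4, 12.7 and 9.70 CPM at 1 week. That male difference of -0.71 passed (limma adjusted p = 0.018) but was lost without control replicate 1 (0.0933), control replicate 3 (0.101) or 1-week replicate 1 (0.0615). Those of -0.56 at 3 weeks and -0.37 at 6 weeks did not (limma adjusted p = 0.0781 and 0.257). *Il34*, at chr8:111423928-111532584, fell in females from 3.75 to 3.97 CPM in controls to 2.35 to 2.90 CPM at 3 weeks and 1.90 to 3.11 CPM at 6 weeks (limma adjusted p = 0.0306 and 0.0181). The 3-week call was lost without any 1 of the 4 controls, 3-week replicate 2 or 3-week replicate 4 (adjusted p of 0.0513 to 0.0874), and the 6-week call without 6-week replicate 1 (0.0719). Males overlapped throughout, with differences of -0.14, -0.09 and -0.18 (limma adjusted p = 0.642, 0.819 and 0.591). The cardiomyocyte marker sum was also lower at 6 weeks in males, with overlapping ranges in females, and its part in the *Il15* and *Il34* values was not tested. Some of these falls lost their call under another scaling, while the female *Il15* calls at 1 and 6 weeks kept theirs. With each library scaled to the sum of its listed reads, the *Il15* difference was -0.37 in 1-week males (adjusted p = 0.15) and -0.23 in 3-week females (0.242). The female *Il34* differences became -0.15 (0.449) and -0.14 (0.479) at 3 and 6 weeks. That scaling moved the median over all genes up by 0.17 to 0.35 log2 units in the comparisons of induced hearts with control. Under it 8356 of 9401 called genes were higher in 6-week females, against 3678 of 7245 with the deposited scaling, and 3606 of 4201 against 2742 of 4580 in 6-week males. *Il7*, a lymphocyte survival factor at chr3:7635054-7678825, went from 0.225, 0.0757 and 0.374 CPM in male controls to 0.85, 1.02 and 0.723 CPM at 6 weeks (limma adjusted p = 0.00905, and 0.0574 without control replicate 3). Female means at 3 and 6 weeks were 1.89 and 1.78 times control (limma adjusted p = 0.0257 and 0.0356), and DESeq2 did not call either (adjusted p = 0.0511 and 0.0689). Both were lost without control replicate 2 or 4, the first also without 3-week replicate 2 or 4 and the second without 6-week replicate 1 or 3, with an adjusted p up to 0.0935 and 0.115. *Il34* shares 100 exon bases with *Vac14* and *Il7* shares 662 with *Gm16685*, in both cases on the opposite strand, and the strand setting of the counting is not given.

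**Figure D2:**
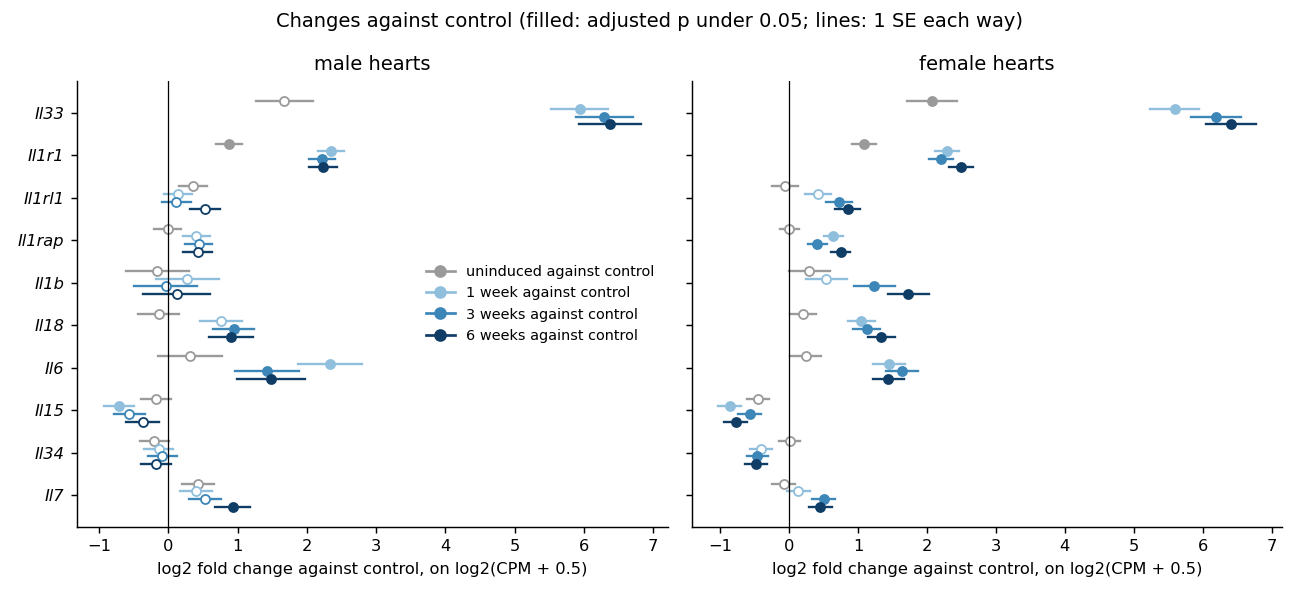
Difference of each gene from control in log2(CPM + 0.5) units, for uninduced hearts and for 1, 3 and 6 weeks of induction, with males on the left and females on the right; lines are 1 SE each way and filled points have adjusted p under 0.05. *Il33* stands near 6 in all 6 induced groups, *Il1r1* near 2, and *Il15* and *Il34* lie below 0.

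Counted over the 10 genes, the call rule of limma adjusted p under 0.05 was met in males by 4 at 1 week, 4 at 3 weeks and 5 at 6 weeks, beside 33.5%, 21.3% and 27.1% of all genes tested. In females it was met by 6, 10 and 10, beside 28.4%, 31.3% and 42.7% of all genes. Of the 10 female genes called at 6 weeks, 8 were higher and *Il34* and *Il15* were lower. *Il6* and *Il18* in both sexes, and *Il7* in males, had all controls below the 0.5 CPM filter. They entered these counts through induced libraries. The ranges of control and induced libraries were apart for 4, 4 and 5 genes in males and 8, 10 and 9 in females, beside 40.9%, 33.1% and 37.7% of all genes in males and 32.8%, 37.5% and 37.5% in females. The median difference of the 10 genes at 6 weeks was 0.72 log2 units in males and 1.09 in females, while the median over all genes was -0.01 and -0.02. The sexes were analysed separately, and the difference between them was not tested.

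Uninduced hearts were also compared with controls. The uninduced mice carried *Rosa26-Il11* and received no tamoxifen, while the controls lacked it and received tamoxifen, so genotype and tamoxifen cannot be told apart in this contrast. *Il1r1* was at 31.5, 23.2, 16.3 and 19.2 CPM in uninduced males and 26.2, 25.5, 48.9 and 23.3 CPM in uninduced females, above all controls of the same sex. Mean CPM was 1.92 times control in males (limma adjusted p = 0.0306) and 2.24 times in females (limma adjusted p = 0.000763). *Il33* was at 12.6, 6.26, 3.10 and 3.12 CPM in uninduced males and 9.52, 7.29, 43.7 and 9.18 CPM in uninduced females, again above all controls. Its mean was 6.26 times control in females (limma adjusted p = 0.00195), or 3.11 times without the library at 43.7 CPM, and 3.96 times in males, where the test was missed (limma adjusted p = 0.0844). The male *Il33* difference passed with DESeq2 (adjusted p = 0.0272), without control replicate 4 (0.0221) or without uninduced replicate 4 (0.04998). The male *Il1r1* call was lost without control replicate 1 or 3, or uninduced replicate 1 or 2, with an adjusted p up to 0.193. The female library at 43.7 CPM of *Il33* also had the highest *Il11* of the uninduced hearts, 49.1 CPM, and the lowest *Il15* of its group, 9.87 CPM. Over the fits that left out 1 library, the female *Il33* difference stayed between 1.5 and 2.34 with an adjusted p of at most 0.00847. Some marker sums also differed in uninduced hearts, with ranges overlapping those of control for male macrophage and female fibroblast markers. Macrophage markers were at 421 to 573 CPM in uninduced females against 231 to 293 CPM in controls, and at 360 to 522 against 253 to 411 CPM in males. Fibroblast markers were at 1796 to 2103 against 1458 to 1762 CPM in males and 2111 to 2796 against 1937 to 2260 CPM in females. Mesothelial markers were at 12.8 to 40.5 against 6.15 to 11.5 CPM in females. In males they were at 4.99 to 8.03 against 7.16 to 8.71 CPM, with overlap. Endothelial markers were lower in males, at 891 to 1082 against 1146 to 1307 CPM. In females they overlapped, at 1018 to 1153 against 1098 to 1228 CPM. Their part in the *Il33* and *Il1r1* values was not tested. Of the 10 genes, 1 was called in uninduced males, beside 0.597% of all genes, and 2 in uninduced females, beside 2.87%. The other 8 genes were not called in either sex.

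**Figure D3:**
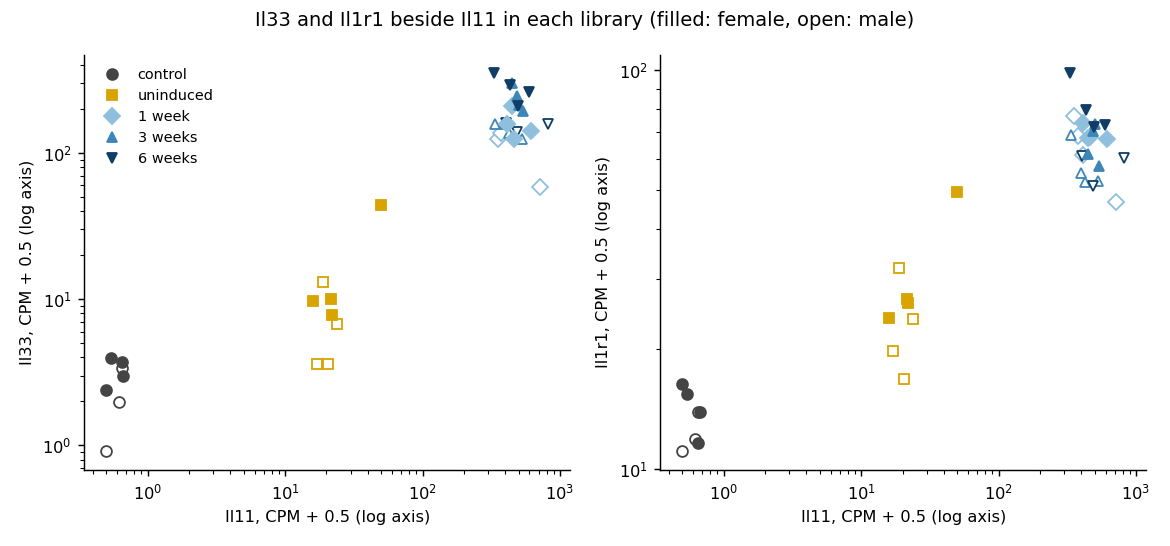
*Il33* (left) and *Il1r1* (right) against *Il11* in each library, both as CPM + 0.5 on log axes, with females filled and males open and the marker giving the group. Within each sex the uninduced libraries lie above the controls on both axes, and the uninduced female at 49.1 CPM of *Il11* is the nearest of them to the induced ones, with 48.9 CPM of *Il1r1* beside 46.3 CPM in the lowest induced heart.

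Set against uninduced hearts, which carry the same transgenes but received no tamoxifen, the main differences were still present. Tamoxifen with Cre activation and *Il11* induction cannot be told apart in this contrast. At 1 week, 4 of the 10 genes were called in males (*Il6*, *Il33*, *Il1r1* and *Il18*) beside 18.8% of all genes, and 5 in females (these and *Il1rap*) beside 12.6%. At 6 weeks, 3 were called in males (*Il33*, *Il1r1* and *Il18*, but not *Il6*) beside 20.4% of all genes, and 9 in females beside 22.8%. Mean *Il33* was 24.2 times the uninduced level in 6-week males and 15.9 times in 6-week females (limma adjusted p = 1.55e-07 and 2.52e-08). Without uninduced replicate 1 in males these levels were 36.5 times apart, and without uninduced replicate 3 in females 32.0 times. The *Il15* difference from uninduced females was -0.32 at 6 weeks and was not called (limma adjusted p = 0.168). These contrasts share the induced libraries with the contrasts against control.

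Between weeks no member was called. In males limma called 0 of the 10 genes for 3 weeks against 1 week, 6 weeks against 1 week and 6 weeks against 3 weeks, beside 0.0177%, 0.165% and 0% of all genes, and 1, 1 and 0 members had an unadjusted p under 0.05. In females it also called 0, beside 0.218%, 1.03% and 0%, and 2, 3 and 1 members had an unadjusted p under 0.05. edgeR and DESeq2 called 0 members in each of these 6 comparisons. Between 6 and 3 weeks, where limma called 0 genes of any kind, 1072 genes in males and 2572 in females had an unadjusted p under 0.05, edgeR called 0 in each sex and DESeq2 called 1 and 117. The nearest to a call was *Il1b* in 6-week against 1-week females, with limma adjusted p = 0.0586. Without female 1-week replicate 1, which had the highest *Il1b* of its group, that difference was 1.42 with adjusted p = 0.0278.

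The order of levels among the 10 genes was taken per kilobase of exon. In controls *Il15* was first, at 2.60 CPM per kb in males and 2.97 in females, followed by *Il1r1* at 1.73 and 2.03 and *Il34* at 0.867 and 1.01. *Il33* was at 0.256 CPM per kb in males, where it was in the fifth place behind *Il1b*, and at 0.450 in females, where it came next. In all 6 induced groups the order began with *Il33*, *Il1r1* and *Il15*, and at 6 weeks these stood at 24.6, 8.36 and 1.94 CPM per kb in males and 44.9, 11.8 and 1.72 in females. The ranges of *Il15* and *Il1r1* overlapped in male controls, and those of *Il33* and *Il1r1* overlapped in 1-week males and were apart in the other 5 induced groups. In uninduced hearts the mean of *Il1r1* was first, at 3.31 and 4.54 CPM per kb, with a range that overlapped that of *Il15* in males and that of *Il33* in females. Below these the means lay close together and their ranges overlapped in many groups, so that part of the order carries no weight.

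Cell markers moved alongside these genes. The summed level of 10 fibroblast markers was 1458 to 1762 CPM in male controls and 3392 to 3762 CPM at 6 weeks, and 1937 to 2260 and 3976 to 6997 CPM in females. Macrophage markers (10 of 10 listed) went from 253 to 411 CPM to 984 to 1442 CPM in males and from 231 to 293 CPM to 1208 to 1373 CPM in females. Endothelial markers (10 of 10) were lower, at 1146 to 1307 CPM in male and 1098 to 1228 CPM in female controls, and 774 to 979 and 738 to 948 CPM at 6 weeks. *Il33* per 1000 CPM of fibroblast markers had a median of 1.01 in male controls and 43.6 at 6 weeks, and of 1.42 and 50.3 in females. The same ratio for *Il1r1* was 7.6 and 16.4 in males and 6.63 and 13.9 in females. Both ratios were higher at 6 weeks than in controls. The macrophage marker median went from 258 to 1133 CPM in males and from 263 to 1368 CPM in females. Mean *Il1r1* went from 11.8 to 57.0 CPM and from 13.8 to 80.2 CPM. The part of any cell type in the levels of *Il33* and *Il1r1* was not tested.

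Further marker lists were summed in the same way. Smooth muscle and pericyte markers (10 of 10) were at 1155 to 1516 CPM in controls and 785 to 1142 CPM at 6 weeks over both sexes. T cell markers were at 4.46 to 8.40 CPM in controls and 11.9 to 21.8 CPM at 6 weeks, with *Cd3d* and *Cd3e* unlisted in males. B and plasma cell markers (8 of 10) were at 6.60 to 14.9 CPM in male controls and 21.6 to 52.9 CPM at 6 weeks. In females (9 of 10) they were at 8.52 to 14.6 and 32.3 to 115 CPM. Neutrophil markers (4 of 10) were at 1.31 to 5.12 CPM in controls and 3.55 to 6.66 CPM at 6 weeks. Mesothelial markers were at 7.16 to 8.71 and 7.93 to 37.7 CPM in males (9 of 10), and 6.15 to 11.5 and 18.6 to 114 CPM in females (10 of 10). Adipose markers (4 of 10) were at 349 to 574 CPM and 214 to 365 CPM, and erythroid markers (9 of 10) at 1409 to 7944 CPM and 480 to 15992 CPM. The value of 15992 CPM was that of male 6-week replicate 4, and the other 6-week hearts reached at most 2719 CPM. The adipose sum lacks *Adipoq*, *Plin1*, *Cidec*, *Lep*, *Retn* and *Ucp1*, which were unlisted.

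Genes that act with the 10 were described from lists chosen by role. Of 7 other IL-1 family ligands the tables listed 1, *Il1rn*, which encodes the IL-1 receptor antagonist. It was at 0.0375 to 0.0814 CPM in male and 0 to 0.250 CPM in female controls and at 0.413 to 0.909 and 1.08 to 2.19 CPM at 6 weeks, and was called higher in both sexes (limma adjusted p = 0.00517 and 7.91e-07). No control reached the 0.5 CPM filter, so *Il1rn* entered the test through induced libraries. The counts of called genes in these lists stand beside 27.1% of all genes in 6-week males and 42.7% in 6-week females. Of 6 other receptors and decoys tested, 2 were called higher in males at 6 weeks, and in females 4 were higher and *Sigirr* was lower. The 2 genes called in both sexes were *Il1r2*, the decoy receptor for IL-1, and *Il18bp*, which binds IL-18. All controls were below the 0.5 CPM filter for *Il1r2*, which also entered the test through induced libraries. *Il18bp* differed from control by 0.63 ± 0.21 in males and 0.69 ± 0.13 in females (limma adjusted p = 0.0303 and 0.000185).

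Among 8 processing genes, which cleave or release IL-1 family cytokines, 5 were called higher at 6 weeks in males and 7 in females, and none lower. *Casp4*, the non-canonical inflammasome caspase, differed by 2.26 ± 0.26 in males and 1.92 ± 0.24 in females (limma adjusted p = 2.28e-06 and 1.89e-06). *Pycard*, the inflammasome adaptor ASC, differed by 1.28 ± 0.24 and 0.97 ± 0.11 (limma adjusted p = 0.00057 and 4.11e-07). Of 11 signalling adaptors, 3 were higher and 2 lower in males and 3 higher and 5 lower in females, beside the same 27.1% and 42.7% of all genes called. The higher ones were *Myd88*, *Irak4* and *Irak3* in both sexes. *Myd88* rose by 1.12 ± 0.15 in males and 1.38 ± 0.19 in females (limma adjusted p = 1.23e-05 and 1.05e-05), and *Irak3*, a brake on the same pathway, by 0.83 ± 0.19 and 0.72 ± 0.11 (limma adjusted p = 0.00348 and 2.79e-05).

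Of 9 receptor genes for IL-6, IL-34, IL-15 and IL-7, 5 were higher and 2 lower in 6-week males and 6 higher and 2 lower in 6-week females. *Sdc1*, a proteoglycan that binds IL-34, went from 4.2 to 5.06 CPM in male controls to 29.6 to 39.8 CPM, and from 4.45 to 6.37 CPM to 31.4 to 65.1 CPM in females (limma adjusted p = 2.79e-08 and 9.95e-09). *Csf1r*, the macrophage receptor for IL-34, went from 30.6 to 55.8 CPM to 102 to 143 CPM in males and from 24.6 to 36.9 CPM to 115 to 155 CPM in females (limma adjusted p = 5.17e-06 and 2.7e-10). *Il15ra*, the private receptor chain for IL-15, and *Ptprz1* were the lower ones in both sexes. A last short list held *Csf1*, the other ligand of CSF1R, *Tslp*, a cytokine related to IL-7, and its receptor chain *Crlf2*. *Crlf2* was called higher in both sexes and *Csf1* in females, and *Tslp* was called in neither.

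Of 10 tested genes known to answer IL-1 early, 5 were called higher in males and 7 in females at 6 weeks, and none lower, beside 27.1% and 42.7% of all genes called. The median of this list was 0.76 in males and 0.98 in females. *Vcam1*, an adhesion molecule of activated endothelium and stroma, was at 6.29 to 10.1 CPM in male and 9.59 to 17.6 CPM in female controls, and at 36.5 to 60.7 and 42.6 to 94.2 CPM at 6 weeks (limma adjusted p = 2.52e-08 and 2.73e-08). *Saa3*, an acute-phase gene, had means of 10.5, 3.31 and 1.75 CPM at 1, 3 and 6 weeks in males and 7.24, 3.15 and 2.69 CPM in females, with controls at 0 to 0.0968 CPM over both sexes. With controls this low, it entered the test through induced libraries. In uninduced females 1 gene of this list, *Icam1*, was called higher.

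**Figure D4:**
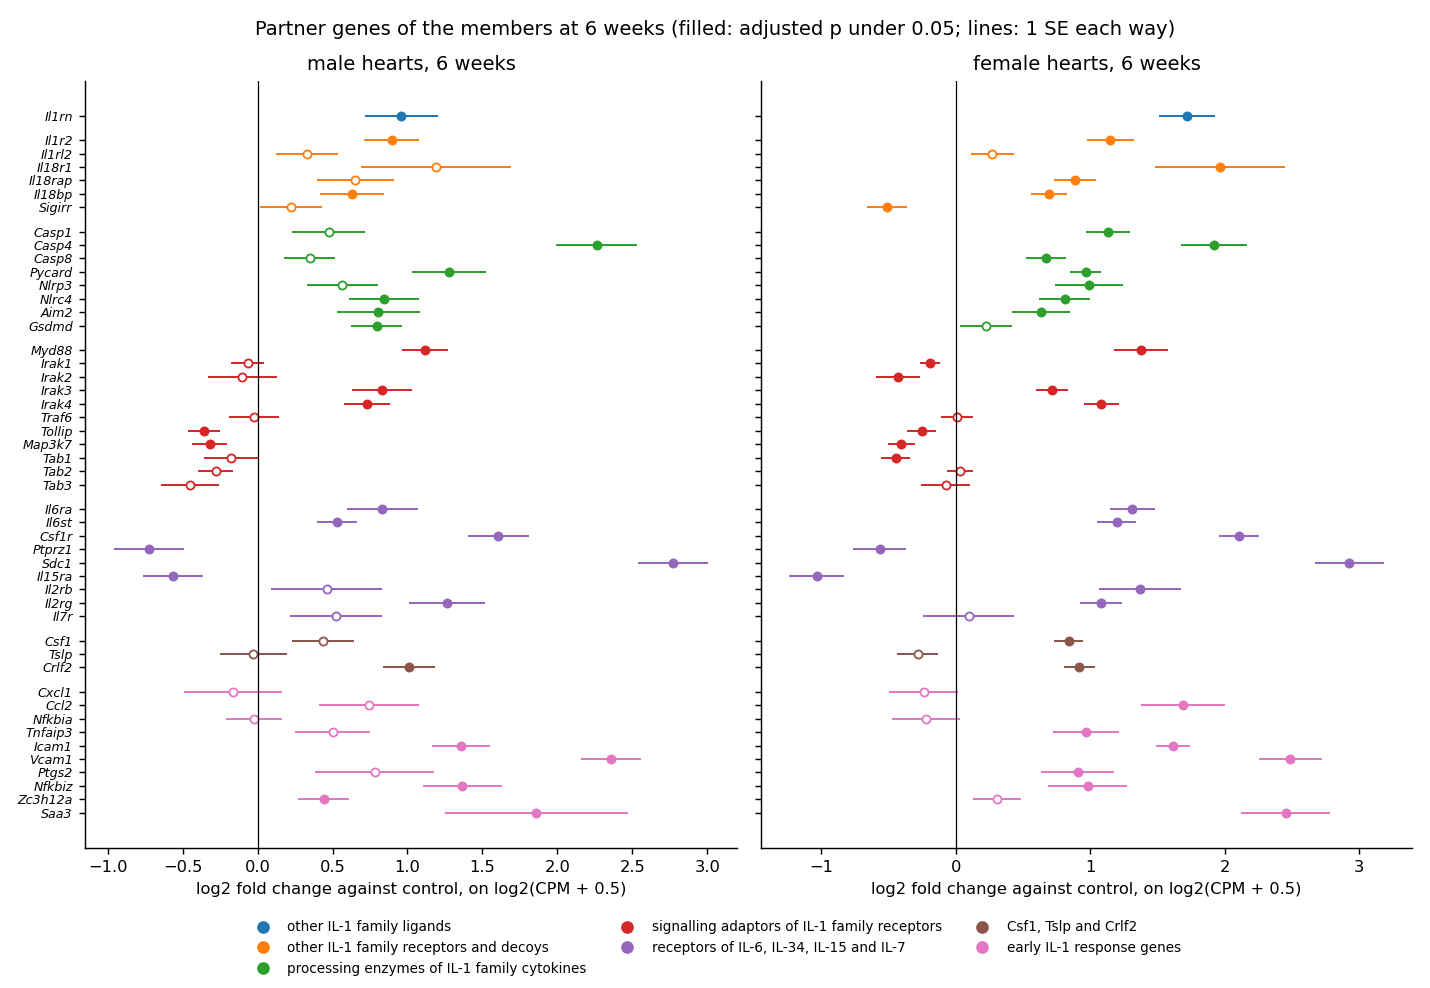
Difference from control at 6 weeks, in log2(CPM + 0.5) units, for the genes of each role, with males on the left and females on the right; colours give the list, lines are 1 SE each way and filled points have adjusted p under 0.05. The processing genes and early IL-1 response genes lie at or above 0 except *Cxcl1* and *Nfkbia*, and the adaptors lie on both sides of it.

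The genes with patterns most like those of the members were ranked by the lower of the correlations in 18 male and 20 female libraries, on log2(CPM + 0.5). These libraries share the division into control and induced groups, so the correlations describe that division. For *Il33* the first were *Pdpn* (r = 0.99 in males and 0.99 in females), *Lbp* (0.99 and 0.99) and *Cmah* (0.99 and 0.99). For *Il1r1* they were *Pdpn* (0.98 and 0.98), *Il17ra* (0.98 and 0.98) and *Csf2rb2* (0.97 and 0.99), so that *Pdpn*, podoplanin, stood first for both. *Il18* was most like *Irak4* (0.91 and 0.90), followed by *Akr1c13* and *Epsti1*, and *Il6* was most like *Rnd1* (0.90 and 0.89), *Ccl7* and *Gm6789*. *Il15* was followed by *Dhrs11* (0.87 and 0.87), *Gm19461* and *Clec18a*, *Il1rap* by *Fndc3b* (0.85 and 0.87), *Lamp2* and *Scn7a*, and *Il34* by *Ehd1* (0.78 and 0.79), *Furin* and *Caskin2*. *Il1b*, *Il1rl1* and *Il7* had weaker likenesses, led by *Shc4* (0.73 and 0.65), *Csgalnact2* (0.67 and 0.73) and *Cela1* (0.67 and 0.77).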

How the data were processed

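Heart RNA of male and female mice was sequenced, and the authors counted reads with featureCounts against GRCm39, per the submitters' processing notes. The signal values deposited, a table for each sex, are CPM as the authors computed them. Columns sum to 817395 to 1196278, and 100% of values lie within 0.001 of whole reads, so read counts were recovered. Female columns sum to 1181923 to 1196278 in controls and 848402 to 942588 at 6 weeks, so the deposited scaling departs from the sum of listed reads by group. No column lacked a sample. Groups came from the sample labels. Where nothing says that samples of a group came from separate mice, p-values measure only the spread between these samples.

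Genes with at least 0.5 CPM in at least 3 libraries (16931 in males, 16956 in females, all 10 members) were fitted on log2(CPM + 0.5) by limma 3.58.1 (trend option; R 4.3.3), the 5 groups of a sex together, with Benjamini-Hochberg adjustment over those genes. This scale understates changes of low genes. A call is an adjusted p under 0.05. The fit was tested on simulated data. Recovered reads were also tested with edgeR 4.0.16 and DESeq2 1.42.0.

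The members and all lists were chosen with earlier results of these data known, and no p was computed over a list. Named genes are the members, *Il11*, from each role list up to 3 genes called in both sexes at 6 weeks with the largest change, and for each member the 3 genes most alike. *Sigirr*, *Il15ra*, *Ptprz1*, *Icam1*, *Csf1*, *Tslp*, *Cxcl1* and *Nfkbia* are also named, to spell out small counts or points of a plot. Promoter windows and positions come from GRCm39 and its annotation. Alternatives were other pseudocounts, filters, scalings and tools, the replicate block, leaving out each library, a minimum fold and both placements of the 2 libraries with conflicting labels; scaling to the sum of listed reads was chosen after seeing the data.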

Additional observations from a re-analysis of the deposited data

Results flagged for a closer look

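Of 80 gene and group combinations with 4 libraries, 8 had a library that stood apart from the rest by Dixon's criterion, which chance alone meets in about 1 of 20. In males these were *Il6* in 3-week replicate 2 (2.32 CPM, others 0.515 to 0.578), *Il1b* in 1-week replicate 1 (2.98 CPM, others 0.553 to 0.698), *Il15* in uninduced replicate 1 (10.7 CPM, others 16.7 to 17.6) and *Il7* in 3-week replicate 4 (0.147 CPM, others 0.656 to 0.75). In females they were *Il6* in control replicate 1 (0 CPM, others 0.0484 to 0.0554, where each of the others held 1 read) and *Il1r1* in 1-week replicate 3 (73.4 CPM, others 66.8 to 67.7). Uninduced female replicate 3 was apart for both *Il33* (43.7 CPM, others 7.29 to 9.52) and *Il1r1* (48.9 CPM, others 23.3 to 26.2). Why these libraries stood apart was not tested.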

How the results depend on the processing

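Over 3107 member values under single changes of the processing, 2967 kept their side of the threshold and direction, 86 were weaker, 36 became calls, 18 moved without a call and 0 reversed. Many of these values were not calls to begin with, and the lower limits of the *Il6* folds among them have no threshold. The share kept therefore does not measure how well calls held. In 6-week males against control, 18 of 169 values were weaker. The calls of *Il33* and *Il1r1* against control at each week held in both sexes, except where the 2 libraries were placed by their titles. That placement left 0 members called in males at 3 weeks against control, 6 weeks against control, uninduced against control and 6 weeks against uninduced, where it called 0, 0, 1 and 4 genes of any kind. Placing the 2 libraries by their descriptions called 4119, 5376, 142 and 4012 genes in the same comparisons.

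A log2 fold change of at least 1 left 3 members called in 6-week males and 0 in uninduced males against control, 5 in 3-week and 5 in 6-week females against control, and 3 at 1 week and 5 at 6 weeks against uninduced females. For uninduced males against control, the count of 1 became 0 with pseudocount 2, 0 with the replicate block, 2 with DESeq2 and 2 with scaling to the sum of listed reads. For 6 against 1 week in females, the count of 0 became 1 with pseudocount 2 and 1 with that scaling. The cause of these changes was not tested.

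Leaving out 1 library gave 2 to 5 members at 3 weeks and 2 to 6 at 6 weeks in males against control, 0 to 2 in uninduced males against control, and 0 to 1 in females at 6 weeks against 1 week. Libraries of the same number in different groups deviated together by r = 0.0132 on average in males and 0.0255 in females (lowest -0.134 and -0.342). These averages over all genes show little shared deviation by number and cannot exclude pairing of some libraries. With the replicate block, male calls at 3 and 6 weeks against control went from 4 to 3 and from 5 to 4 as *Il18* was lost, and the 6-week female *Il7* call was lost at adjusted p = 0.0503. With few reads behind *Il6*, *Il18*, *Il7* and *Il1b* in controls, depth limits the size of their folds.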

Other observations

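The 2 male libraries with conflicting labels were in no comparison. The library titled as a 6-week heart held 0.597 CPM of *Il11*, 2.27 CPM of *Il33*, 11.4 CPM of *Il1r1*, 0 CPM of *Il6* and 16.5 CPM of *Il15*. The library titled as a control held 511 CPM of *Il11*, 170 CPM of *Il33*, 61.6 CPM of *Il1r1*, 1.64 CPM of *Il6* and 13.4 CPM of *Il15*. *Il11* was at 0 to 0.147 CPM in the male controls and 407 to 819 CPM in the 6-week males. By *Il11*, each library lay nearer to the group of its description than to that of its title.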
